A study of Mus musculus with 16 samples.

Results

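The nuclear genes of the mitochondrial respiratory chain and of the ATP synthase were followed in RNA from mouse lung tumors. They were taken by symbol from the 16 deposited count files: symbols that begin with Ndufa, Ndufb, Ndufc, Ndufs, Ndufv, Uqcr, Cox4, Cox5, Cox6, Cox7, Cox8 or Atp5, with Sdha, Sdhb, Sdhc, Sdhd and Cyc1, and without assembly factors, pseudogenes and Ndufab genes. This gave 86 of 23284 gene rows, of which 37 fall under complex I, 4 under complex II, 9 under complex III, 19 under complex IV and 17 under the ATP synthase. Of these, 3 are not subunits: Cox4nb, now named Emc8, encodes a part of the endoplasmic reticulum membrane complex, Atp5s encodes a coupling factor, and Atp5sl, now Dmac2, encodes a complex I assembly protein. Ndufa4 was counted under complex I by its symbol, although its product is now known as a subunit of complex IV.

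The series compares 9 lung tumors labelled Max null (genotype Max -/-) with 7 labelled Max wild-type, all from RP mice of a mixed 129/SvJ and C57BL/6 strain. The letters RP, which the labels leave unexplained, commonly stand for conditional alleles of Rb1 and Trp53, whose joint loss models small cell lung cancer. In both groups genes were deleted by adenovirus carrying Cre recombinase, given into the trachea. The virus drives Cre from the CMV promoter, which is not restricted to 1 cell type. Ages were not used here. Nothing in the labels ties each tumor to a mouse of its own, so a p-value here reflects only how much these samples vary.

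The respiratory chain passes electrons from NADH, through complex I, and from succinate, through complex II, by way of ubiquinone to complex III, cytochrome c and complex IV, where oxygen is reduced. Complexes I, III and IV pump protons across the inner mitochondrial membrane, and the ATP synthase lets them flow back to make ATP. Most subunits are nuclear-encoded, translated in the cytosol and imported; the remainder come from mitochondrial DNA and were not analysed here. MAX is the obligate partner of the MYC proteins, which bind E-boxes as MYC-MAX dimers and are known to raise the transcription of many mitochondrial genes in other cells.

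Promoter stretches of the genes with an E-box of the letters CACGTG are shown because that is the site a MYC-MAX dimer reads. RefSeq promoter windows (GRCm38.p6), running from 250 bases before to 50 bases after a gene's start, were matched for 66 of 83 subunit genes. CACGTG, which reads the same on both strands, stood in the windows of 5 of these genes, or 7.58%, against 8.09% of all 27025 genes with a window. Atp5l and Ndufa7 fell in tumors labelled Max null, as described below; Atp5g1, Atp5g3 and Ndufv1 did not pass the test, with log2 differences of -0.28, -0.43 and -0.21. Ndufv1 is named only for this motif and was chosen after its values had been seen. In the stretches, written 5′ to 3′ on the gene's strand, capitals mark the motif, and distances run to its first base.

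Atp5l, minus strand of chr9:44920857-44920916, E-box 147 bases before the start: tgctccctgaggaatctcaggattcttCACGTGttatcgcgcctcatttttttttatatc
Ndufa7, plus strand of chr17:33824473-33824532, E-box 72 bases before the start: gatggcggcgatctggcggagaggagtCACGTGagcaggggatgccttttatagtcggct
Atp5g1, minus strand of chr11:96075643-96075702, E-box 44 bases before the start: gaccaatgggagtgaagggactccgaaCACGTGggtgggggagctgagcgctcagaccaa
Atp5g3, minus strand of chr2:73911532-73911576, E-box 238 bases before the start: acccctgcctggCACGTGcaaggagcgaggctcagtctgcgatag
Ndufv1, minus strand of chr19:4012892-4012951, E-box 169 bases before the start: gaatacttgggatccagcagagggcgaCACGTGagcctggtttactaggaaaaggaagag

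Among the motifs of factors known to drive these genes, the NRF1 core CGCATGCG stood in 13.6% of the 66 genes against 2.07% of all genes with a window. The YY1 core AAGATGGC, searched on both strands with its reverse complement GCCATCTT, stood in 13.6% against 3.19%. The ETS core of GABP, CCGGAAGT or ACTTCCGG, stood in 7.58% against 4.31%. No motif shares its letters with another, and these matches are a description of letters in a window, not of binding. The ETS core stood in 1 of 17 subunit genes that fell, or 5.88%, and in 4 of 47 that did not pass, or 8.51%. The window of Uqcrh, the subunit gene with the lowest difference among those called, holds an ETS core 11 bases before its start, shown in capitals:
Uqcrh, minus strand of chr4:116075071-116075108: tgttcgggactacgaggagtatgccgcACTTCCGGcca

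Reads in genes numbered 8.66 M to 15.11 M per tumor, and Chga, a protein of neuroendocrine secretory granules, measured 288 to 1423 CPM in null tumors and 235 to 846 CPM in wild-type tumors. CPM are counts per M reads in genes, with library sizes scaled by TMM factors. Max itself averaged 74.4 ± 5.98 CPM in tumors labelled Max null and 65.8 ± 7.97 CPM in tumors labelled Max wild-type (SD, n = 9 and 7). It was not lower in the null tumors; the labels do not say which part of the gene is deleted, so whole-gene counts do not check the genotype, and tumors are named by their labels throughout. The share of reads aligned to more than 1 place was 9.17% to 11.8% in null tumors and 12.3% to 22.2% in wild-type tumors. Wild-type tumors 2, 4 and 7 had the highest shares, 16.01%, 20.8% and 22.2%, and wild-type 7 a TMM factor of 0.748, against 0.936 to 1.07 in the other 15. Wild-type 2 was close to wild-type 6, at 14.6%, so only wild-type 4 and 7 were far from the rest in this share. The same 3 tumors had the highest member sums, as given below. The totals, the counts and the members that fell are given with and without all 3.

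Summed over the 83 subunit genes (the 86 members less the 3 that are not subunits), respiratory chain and ATP synthase mRNA amounted to 9327 ± 554 CPM in Max null tumors and 14233 ± 8965 CPM in Max wild-type tumors (SD, n = 9 and 7). The groups overlapped. Wild-type tumors 1, 3, 5 and 6 averaged 9329 ± 617 CPM, the same as the null mean within 1 SD, and wild-type 2, 4 and 7 measured 13103, 15431 and 33783 CPM. The higher wild-type mean therefore rested on 3 libraries, of which wild-type 7 stood at 3.62 times the null mean. As a share of all reads in genes, with no scaling, the 83 genes took 0.898% to 1.04% in null tumors, 0.909% to 1.02% in wild-type 1, 3, 5 and 6, and 1.22%, 1.49% and 2.52% in wild-type 2, 4 and 7. In RNA of a whole tumor, fewer cells that make an mRNA and less mRNA per cell cannot be told apart.

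In every complex wild-type 7, 4 and 2 were the 3 highest tumors, in that order. Complex I sums were 2690 ± 191 CPM in null tumors and 4212 ± 2636 CPM in wild-type tumors, with wild-type 7 at 9867. Complex II sums were 479 ± 39.4 CPM in null and 622 ± 346 CPM in wild-type tumors. Complex III sums were 1020 ± 78.4 CPM in null and 1624 ± 1092 CPM in wild-type tumors. The smallest spread of all between null tumors, relative to the mean, was that of the ATP synthase. It summed to 3359 ± 184 CPM in null and 4927 ± 2930 CPM in wild-type tumors. Complex IV summed to 1779 ± 232 CPM in null and 2848 ± 1973 CPM in wild-type tumors, and null 5, at 2326 CPM, was the highest null tumor there.

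**Figure D1:**
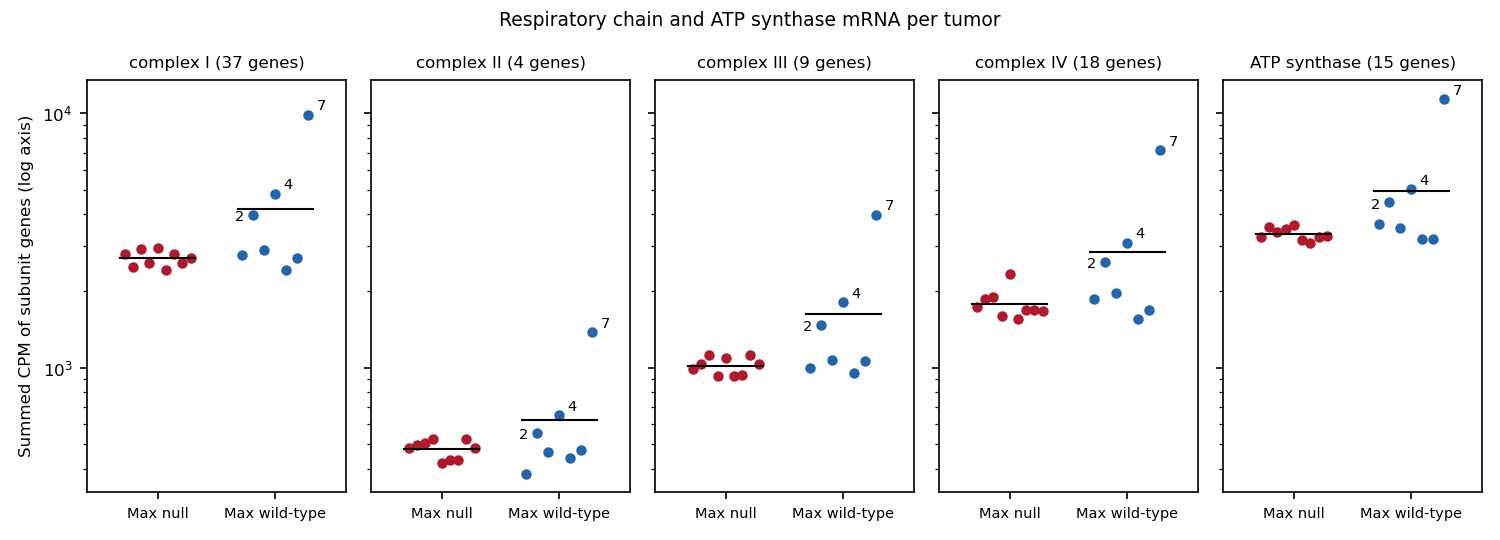
Summed CPM of the subunit genes of each complex in every tumor, on a log axis, with Max null tumors left of Max wild-type tumors, 1 point per tumor and a line at the group mean. Wild-type 7 is highest in all 5 panels, from 1382 CPM in complex II to 11392 CPM in the ATP synthase, and wild-type 1, 3, 5 and 6 lie among the null tumors or just outside them (wild-type 1 in complex II and the ATP synthase, wild-type 5 in complex IV).

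Gene by gene, 83 of the 86 members, 80 of them subunits, passed the filter on low counts. The others were tissue-restricted complex IV genes: Cox8c had 0 reads in every tumor, Cox7b2 at most 3 and Cox8b at most 8. Of the 83, 19 fell in tumors labelled Max null and 0 rose (edgeR's quasi-likelihood test, Benjamini-Hochberg adjusted over 14825 genes, threshold 0.05). At an unadjusted p under 0.05, 54 were lower and 0 higher, and DESeq2 and limma-voom also called 0 higher. Among all genes tested, 8.64% fell and 7.40% rose. The median log2 difference, Max null minus Max wild-type, was -0.67 over the 83 members and -0.03 over all genes. Differences were below 0 for 80 members, against 52.4% of all genes. No member had groups that did not overlap, as 1.56% of all genes had.

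Without wild-type tumors 2, 4 and 7 the picture was different: 0 of 83 members were called by the same test, where 1.68% of all genes were called, 0.871% lower and 0.805% higher. At an unadjusted p under 0.05, 3 members were lower and 4 higher. These 3 tumors were the highest in every complex sum, so leaving them out shrinks the difference by construction and does not show what caused it. The member median was -0.02, with 38 members above and 45 below 0. All 19 called members kept their direction without these 3 tumors. They had been picked as lower in a fit that held the same remaining tumors, so this is no separate support. When tumors were left out 1 at a time, 7 members were called in all 16 fits: Uqcrh, Atp5l, Ndufa12, Ndufa2, Ndufa7, Cox5a and Ndufv2. Leaving out wild-type 7 alone left these 7 and a member median of -0.30, with 1555 of all genes called, against 2378 over all 16 tumors. The share of all genes called in all 16 fits is not given here, so the 7 are not shown to be unusual. Without wild-type 4 alone 9 members were called and without wild-type 2 alone 11, while 30 to 34 were called without wild-type 1, 3, 5 or 6. All genes called numbered 1471 without wild-type 4, 1669 without wild-type 2 and 2264 to 3033 without wild-type 1, 3, 5 or 6.

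**Figure D2:**
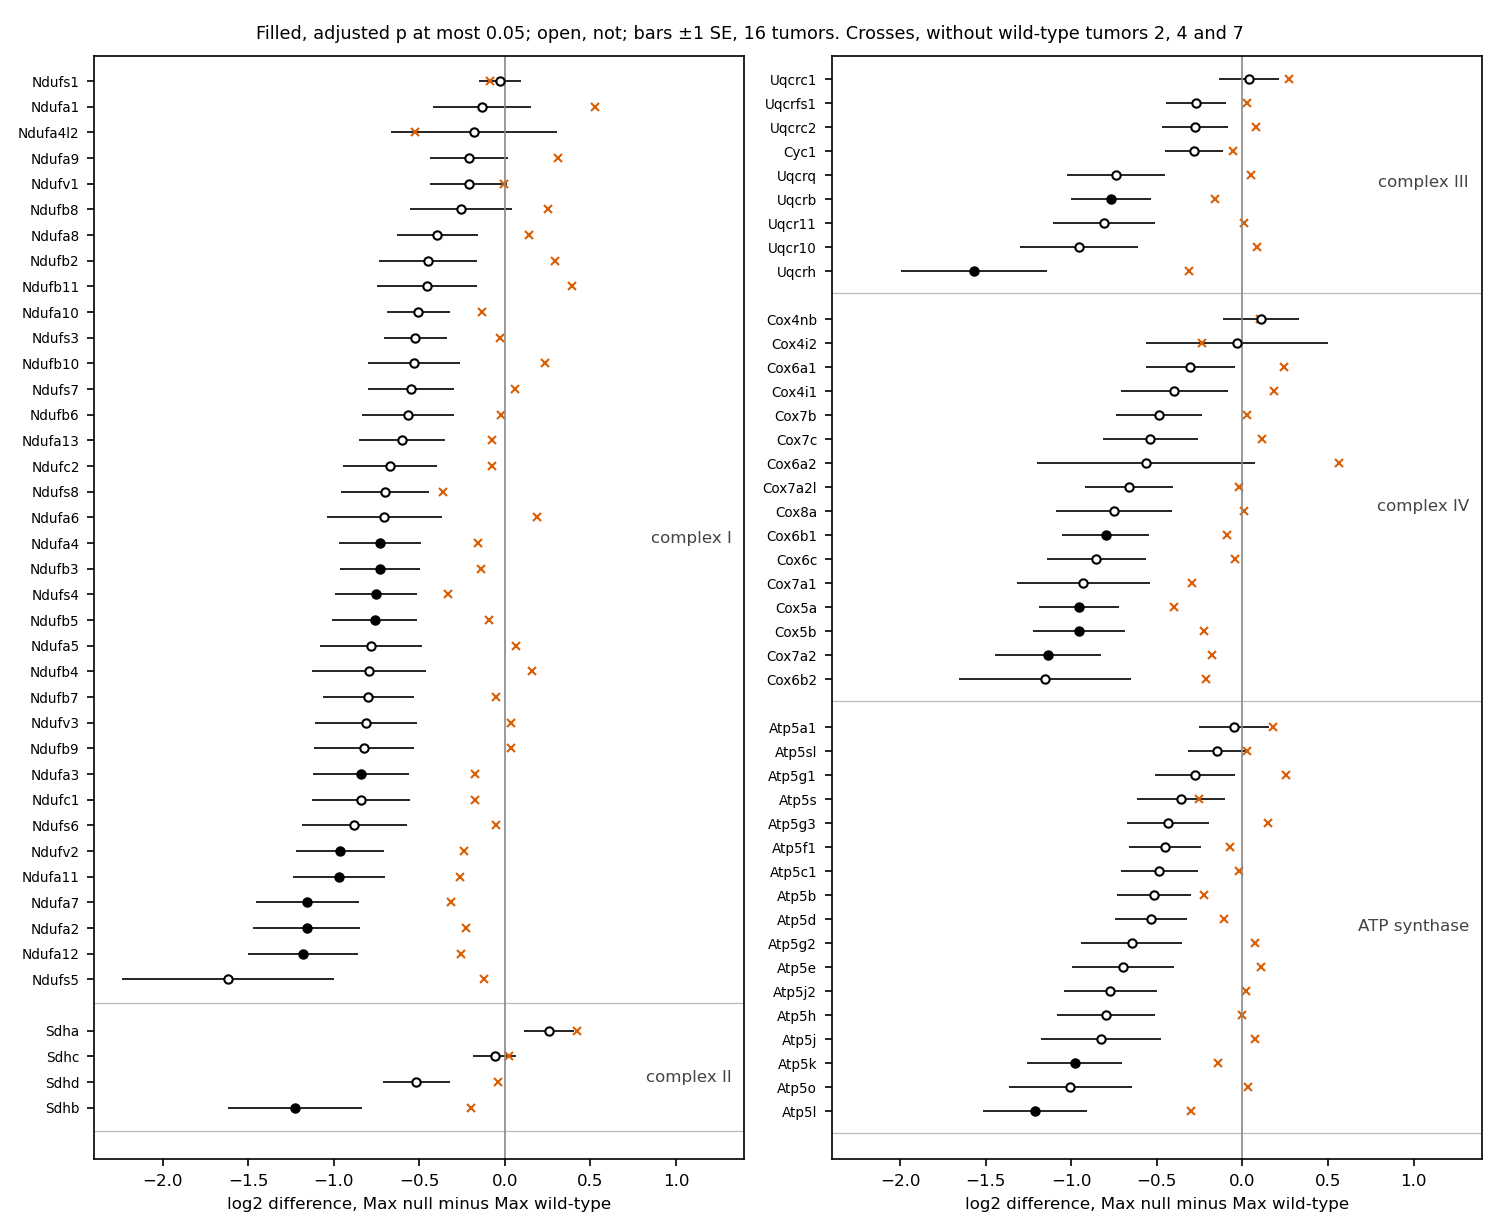
Fitted log2 difference, Max null minus Max wild-type, of 82 of the 83 tested members, by complex, over 16 tumors (circles with ± 1 SE; filled, adjusted p at most 0.05) and without wild-type tumors 2, 4 and 7 (crosses). Nearly all circles lie left of 0 (80 of all 83 members), and crosses lie around 0, with a median of -0.02 over all 83.

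In complex I, 10 of 37 members fell, beside 8.64% of all genes. The median was -0.70, and -0.05 without wild-type 2, 4 and 7. Its matrix arm, where NADH is oxidized, gave the lowest called values. Ndufa12, an accessory subunit of that arm, measured 62.5, 70.6 and 92.6 CPM (lowest, median, highest) in null tumors and 79.96, 101 and 496 CPM in wild-type tumors. The groups overlapped, and wild-type 7 was far above the others. The log2 difference was -1.18 ± 0.32 (SE; edgeR's quasi-likelihood test, adjusted p = 0.0229), and -0.26 without wild-type 2, 4 and 7.

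Ndufa2, which sits beside the iron-sulfur subunits of the matrix arm, measured 56.4, 65.2 and 73.2 CPM in null tumors and 61.4, 86.6 and 414 CPM in wild-type tumors. Its difference was -1.16 ± 0.31 (edgeR adjusted p = 0.0227), and -0.23 without the 3 tumors. The E-box gene Ndufa7, a further accessory subunit of the matrix arm, measured 52.4, 58.1 and 77.3 CPM in null tumors and 67.1, 92.5 and 373 CPM in wild-type tumors. Its difference was -1.15 ± 0.30 (edgeR adjusted p = 0.0193), and -0.32 without the 3 tumors. In all of these genes the null range overlapped only the lower part of the wild-type range.

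Of the 7 core subunits of complex I that are in the nucleus, those kept from bacteria to mammals, 1 fell, beside 8.64% of all genes. This was Ndufv2, an iron-sulfur subunit of the module that takes electrons from NADH, with 73.4, 103 and 132 CPM in null tumors and 95.4, 140 and 425 CPM in wild-type tumors (-0.96 ± 0.26, edgeR adjusted p = 0.0216; -0.24 without the 3 tumors). Ndufs1, the largest subunit and the carrier of several iron-sulfur clusters, measured 80.9, 90.9 and 130 CPM in null tumors and 84.5, 97.5 and 116 CPM in wild-type tumors. Its difference was -0.03 ± 0.12 (edgeR adjusted p = 0.898), and it was one of the few members near the level of other tumors in wild-type 7, at 1.03 times the mean of the other 15 tumors. Over the 30 accessory members of complex I, 9 fell and the median was -0.74, against -0.52 over the 7 core members.

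The other called accessory subunits of complex I lay between -0.97 and -0.73. In the membrane arm, Ndufa11 differed by -0.97, Ndufa3 by -0.84, Ndufb5 by -0.76 and Ndufb3 by -0.73 (edgeR adjusted p 0.0249 to 0.0485). Ndufs4, an assembly-linked subunit of the matrix arm whose loss causes Leigh syndrome in humans, differed by -0.75 (edgeR adjusted p = 0.0413). Ndufa4 differed by -0.73 (edgeR adjusted p = 0.0474). Without wild-type 2, 4 and 7 these 6 genes lay between -0.33 and -0.09. Ndufb11, of the membrane arm, measured 148, 180 and 246 CPM in null tumors and 125, 159 and 671 CPM in wild-type tumors, so its null median lay above its wild-type median, while the fitted difference was -0.46 (edgeR adjusted p = 0.294; 0.39 without the 3 tumors).

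Ndufs5, a membrane-arm subunit, had the lowest fitted difference of all members, -1.62 ± 0.62, and did not pass (edgeR adjusted p = 0.0794). It measured 0.758, 1.05 and 2.75 CPM in null tumors and 0.828, 1.499 and 19.6 CPM in wild-type tumors. The value rests on wild-type 7, without which the difference was -0.12. Of its transcript's 50-base words, 31.1% also occur in transcripts of other genes, and the counting gives multiply aligned reads to no gene, so its level is uncertain.

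In complex II, succinate dehydrogenase, 1 of 4 members fell, with a median of -0.29, and -0.01 without wild-type 2, 4 and 7. With so few genes, this count cannot be weighed against the 8.64% of all genes that fell. Sdhb, its iron-sulfur subunit, measured 72.8, 92.1 and 144 CPM in null tumors and 67.2, 146 and 787 CPM in wild-type tumors. The lowest wild-type tumor was below every null tumor. The difference was -1.23 ± 0.39 (edgeR adjusted p = 0.0412), -0.47 without wild-type 7 and -0.20 without the 3 tumors. Sdha, the flavoprotein that oxidizes succinate, measured 174, 207 and 275 CPM in null tumors and 142, 168 and 253 CPM in wild-type tumors, the other way round (0.26 ± 0.14, edgeR adjusted p = 0.222; 0.42 without the 3 tumors). It was the highest difference among the members. The membrane anchor gene Sdhd differed by -0.52 and did not pass (edgeR adjusted p = 0.0761; -0.04 without the 3 tumors).

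In complex III, 2 of 9 members fell, beside 8.64% of all genes. The median was -0.74, and 0.03 without wild-type 2, 4 and 7. Uqcrh encodes the hinge protein, which contacts cytochrome c1. It measured 95.4, 128 and 146 CPM in null tumors and 120, 180 and 1388 CPM in wild-type tumors. Wild-type 4, at 387 CPM, was next to wild-type 7, and the other 5 wild-type tumors lay between 120 and 189 CPM. The difference was -1.57 ± 0.43 (edgeR adjusted p = 0.0226), the lowest of the called members, and -0.68 without wild-type 7 and -0.31 without the 3 tumors.

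Uqcrb, the ubiquinone-binding subunit of complex III, measured 82.6, 102 and 121 CPM in null tumors and 88.2, 137 and 342 CPM in wild-type tumors (-0.77, edgeR adjusted p = 0.0349; -0.16 without the 3 tumors). The core proteins are related to the peptidases that process imported proteins. Uqcrc1 measured 108, 137 and 203 CPM in null tumors and 111, 125 and 246 CPM in wild-type tumors (0.04 ± 0.18, edgeR adjusted p = 0.906). Uqcrc2 differed by -0.28 (edgeR adjusted p = 0.339; 0.08 without the 3 tumors). Whether these differ from the small subunits was not tested.

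In complex IV, cytochrome c oxidase, 4 of 16 tested members fell, beside 8.64% of all genes. The median was -0.71, and -0.03 without wild-type 2, 4 and 7. Cox5a, a matrix-side subunit, measured 66.3, 82.4 and 105 CPM in null tumors and 99.7, 121 and 361 CPM in wild-type tumors, where only the highest null tumor reached into the wild-type range. Its difference was -0.95 ± 0.23 (edgeR adjusted p = 0.0142), the smallest p among the members, and -0.40 without the 3 tumors. At least 10% of Cox5a's 50-base words also occur in transcripts of other genes, so its level is uncertain. Cox7a2, which lies where monomers of the oxidase meet, measured 114, 149 and 174 CPM in null tumors and 154, 207 and 826 CPM in wild-type tumors (-1.14 ± 0.31, edgeR adjusted p = 0.0235). Zinc-binding Cox5b differed by -0.96 and Cox6b1, on the intermembrane face, by -0.80 (edgeR adjusted p 0.0263 and 0.0403). Without the 3 tumors Cox7a2 was at -0.18, Cox5b at -0.22 and Cox6b1 at -0.09.

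Cox4i1, the ubiquitous form of subunit IV, measured 254, 343 and 614 CPM in null tumors and 275, 322 and 1294 CPM in wild-type tumors. Null 5 and wild-type 7 were the highest of their groups, and the difference of -0.40 did not pass (edgeR adjusted p = 0.391; 0.18 without the 3 tumors). Cox6c differed by -0.85 (edgeR adjusted p = 0.0522; -0.04 without the 3 tumors), and Cox6a1, the common form of a subunit that has a muscle form, by -0.30 (edgeR adjusted p = 0.441; 0.24 without them). Cox6b2, a form known from testis, had the lowest fitted difference of the complex, -1.15, at 1.20, 3.04 and 11.99 CPM in null tumors and 2.37, 8.73 and 25.7 CPM in wild-type tumors (edgeR adjusted p = 0.119; -0.21 without the 3 tumors). Cox4nb, which is no subunit, had the highest, 0.11.

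Among the 17 ATP synthase members, 2 fell, beside 8.64% of all genes. The median was -0.54, or 0.02 without wild-type 2, 4 and 7. The 2 that fell belong to the membrane sector. Atp5l, subunit g and an E-box gene, measured 128, 147 and 197 CPM in null tumors and 164, 221 and 878 CPM in wild-type tumors (-1.21 ± 0.30, edgeR adjusted p = 0.0154; -0.30 without the 3 tumors). Atp5k, subunit e, which helps synthase dimers form, measured 37.4, 39.6 and 57.9 CPM in null tumors and 37.0, 62.8 and 171 CPM in wild-type tumors (-0.98, edgeR adjusted p = 0.0273; -0.14 without the 3 tumors). Of Atp5l's 50-base words, 84.8% also occur in transcripts of other genes, so its level is uncertain.

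The alpha and beta subunits form the catalytic head. Atp5b, the beta subunit, where ATP is formed, measured 588, 766 and 918 CPM in null tumors and 797, 874 and 2244 CPM in wild-type tumors (-0.52 ± 0.21, edgeR adjusted p = 0.104; -0.22 without the 3 tumors). Atp5a1, the alpha subunit, measured 545, 665 and 810 CPM in null tumors and 483, 544 and 1287 CPM in wild-type tumors, and its difference was -0.05 (edgeR adjusted p = 0.890; 0.18 without the 3 tumors). Its null median was above its wild-type median. Per kilobase of transcript, Atp5b averaged 393 CPM in null and 562 CPM in wild-type tumors, and Atp5a1 267 CPM in null and 276 CPM in wild-type tumors. Atp5f1, of the stalk that holds the head still, differed by -0.45 (edgeR adjusted p = 0.145; -0.07 without the 3 tumors).

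Several subunits exist as a common form and a form restricted to other tissues or conditions, and their ratio within a tumor does not depend on library scaling. Per kilobase of transcript, Cox4i2, a form known from lung and from cells in low oxygen, averaged 5.63 CPM in null tumors and 5.74 CPM in wild-type tumors, against 466.3 CPM in null tumors and 614 CPM in wild-type tumors for Cox4i1. Null tumors had a log2 ratio of Cox4i2 to Cox4i1 of -6.51 ± 0.83, against -7.07 ± 1.56 for the wild-type group (SD; two-sided exact permutation test over 11440 splits, p = 0.370). For Ndufa4l2, a paralog of Ndufa4 known to respond to low oxygen, null tumors had a log2 ratio of -5.40 ± 0.97, against -5.74 ± 1.28 for the wild-type group (exact permutation p = 0.557). The muscle forms Cox6a2 and Cox7a1 and the testis form Cox6b2 also gave differences of ratio within the spread between tumors (exact permutation p = 0.725, 0.597 and 0.345).

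Atp5g1, Atp5g2 and Atp5g3 encode the same mature ring subunit of the synthase with different import sequences. The log2 ratio of Atp5g1 to Atp5g3 averaged -1.13 ± 0.15 over null tumors, against -1.28 ± 0.16 over wild-type ones, a difference of 0.16 with the smallest p of the 7 pairs (exact permutation p = 0.0656, 0.459 after adjustment over the pairs). That of Atp5g2 to Atp5g3 averaged -0.17 ± 0.36 over null tumors, against -0.04 ± 0.20 over wild-type ones (exact permutation p = 0.398). No pair passed. Of the 50-base words of Atp5g2, 87.4% also occur in transcripts of other genes, so its level and that ratio are uncertain.

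The members also had transcript length in common. Over the 80 subunit genes tested, the median transcript was 849.5 bases, against 3003 bases over all genes tested, and it was 618 bases for the 19 that fell and 934 for those that did not pass. Across all genes the median log2 difference followed length too. It was -0.83 for the 167 genes under 600 bases, -0.57 from 600 to 1000, -0.38 from 1000 to 1500, -0.14 from 1500 to 3000 and 0.15 above 3000 bases. Subunit genes gave -0.88, -0.73, -0.57, -0.36 and -0.28 in the same bins, of 19, 29, 14, 15 and 3 genes. Of these subunit genes 8, 6, 3, 2 and 0 fell. Of all genes in the bins, 32.3%, 19.4%, 18.3%, 9.98% and 4.17% fell. The 8.64% set beside the counts of members is over genes of every length, so much of that gap goes with length. Across the 80 genes, Spearman's rho of difference with length was 0.51, and 0.16 without wild-type 2, 4 and 7; it was 0.39 across all genes. Genes share libraries and are not independent, so these are descriptions.

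**Figure D3:**
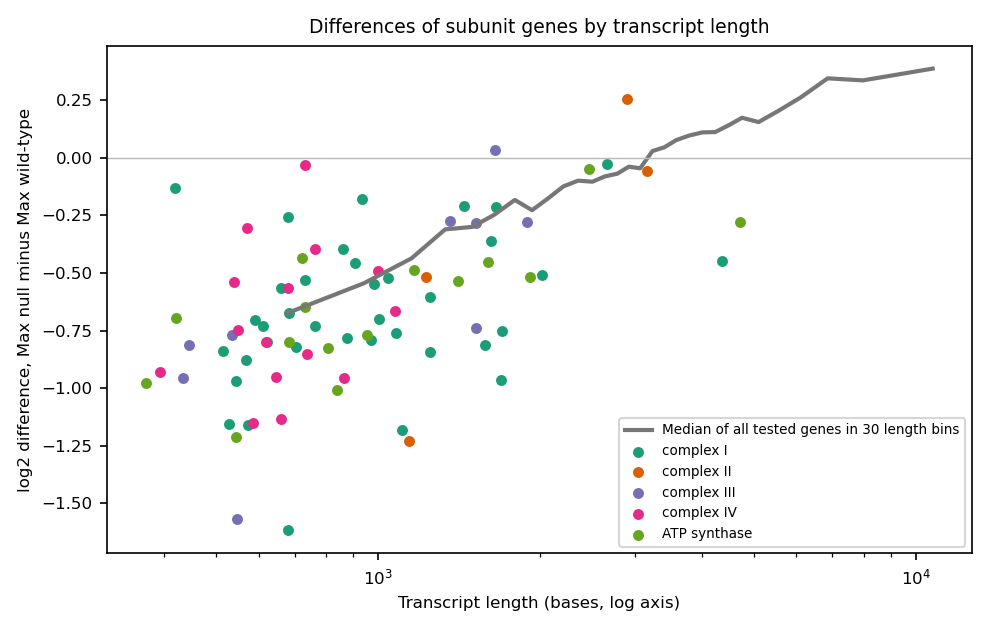
Log2 difference, Max null minus Max wild-type, of the 80 tested subunit genes against transcript length in bases on a log axis, colored by complex, with a line through the medians of all tested genes in 30 length bins. Shorter genes lie lower both among the subunits and along the line.

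Within single tumors the same relation set wild-type 7 and 4 apart. Spearman's rho, across genes, of a tumor's deviation from the 16-tumor mean with length was -0.54 in wild-type 7, -0.42 in wild-type 4, -0.17 in wild-type 2 and -0.13 in wild-type 3, and between -0.09 and 0.28 in the other 12. With a smooth trend on length and GC content removed from each library, 3 members were called: Ndufa12 at -0.61 and Ndufa7 at -0.38 lower, and Ndufa1, an accessory subunit named after its value was seen, higher at 0.80. Of all genes 10.8% were called in that fit, so the members' share was below that of all genes. The member median was then -0.12, with -0.03 over all genes. With the share of multiply aligned reads as a covariate, 0 of 83 members and 10 of all genes, or 0.0675%, were called by edgeR's test. At an unadjusted p under 0.05, 0 members were lower and 16 higher, and the member median was 0.29; that share does not overlap between the groups, so its part and the genotype's cannot be told apart.

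Reads from near-identical copies belong to no gene in such counts. Of 38 subunits that share under 1% of their 50-base words with transcripts of other genes, 7 fell, with a median of -0.61. Of 13 that share 1% to 10%, 5 fell, with a median of -0.73, and of 29 that share at least 10%, 7 fell, with a median of -0.77. Of all genes 8.64% fell, and 32.3% of those under 600 bases. The difference between these groups of subunits was not tested. Those that share at least 10% and fell were Atp5l, Cox5a, Cox5b, Ndufa11, Ndufa12, Ndufb5 and Uqcrb, so their levels are uncertain. Ndufa13 shares 29.98% of its exon bases with Tssk6, and Ndufb6 shares 39.0% with 2010003O02Rik, both on the opposite strand, so both are uncertain. Neither passed the test.

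Tumor by tumor, wild-type 7 was above the 16-tumor median for 82 of 83 members and the highest of all 16 for 74, where it was highest for 18.1% of all genes tested. Wild-type 4 was above the median for 73 members and wild-type 2 for 70. Null tumors were above it for 14 to 51 members, and wild-type 1, 3, 5 and 6 for 39, 54, 20 and 36. For 44 members the 3 highest tumors were wild-type 2, 4 and 7. Ndufa4l2 went the other way, at 0.49 times the mean of the other 15 tumors in wild-type 7. Sdhc, the other membrane anchor of complex II, was at 1.22 times and Sdha at 1.28 times. Sdhc was named here after its values were seen.

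**Figure D4:**
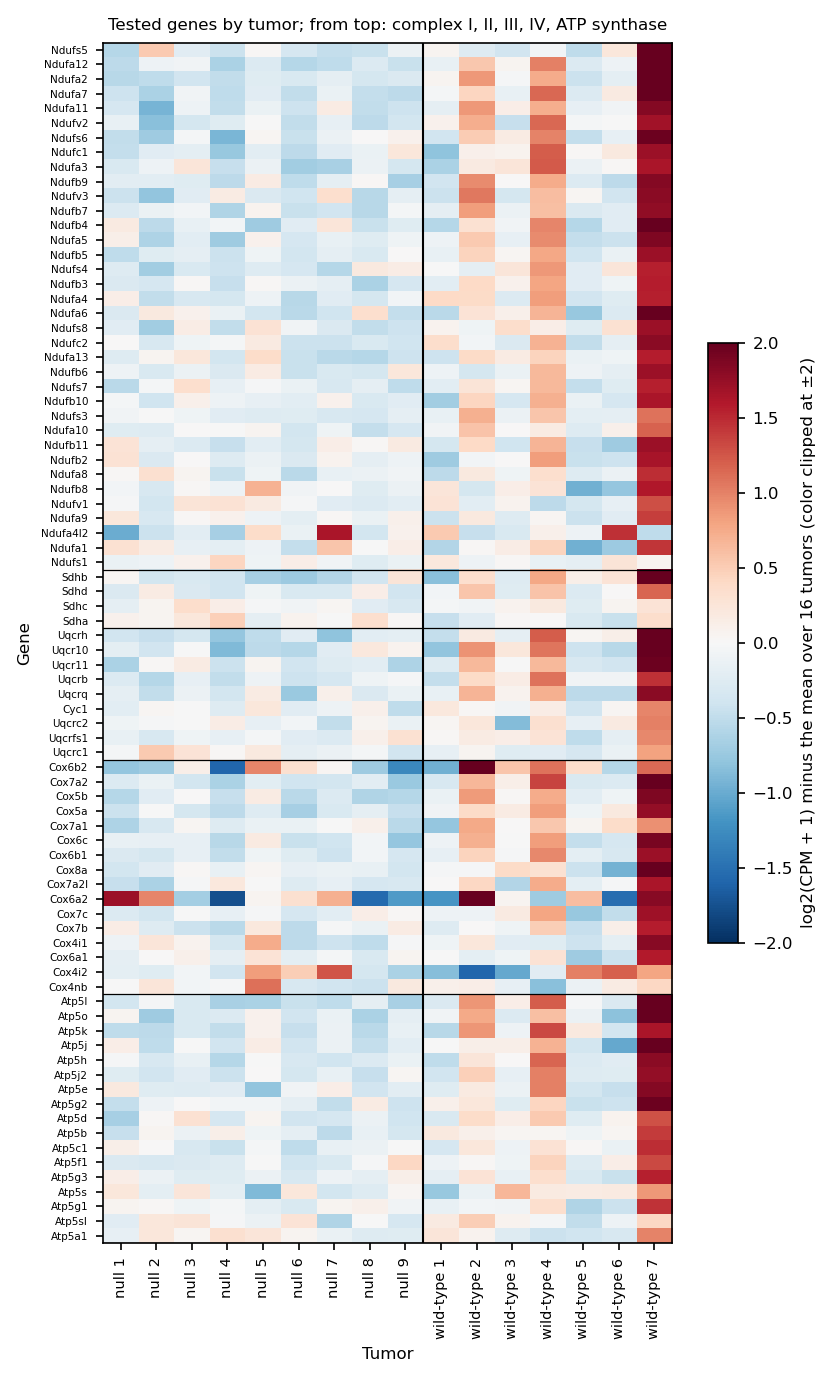
Log2(CPM + 1) of 82 of the 83 tested members in each tumor, minus its mean over the 16 tumors, with Max null tumors left of Max wild-type tumors and genes ordered by complex and then by difference. Wild-type 7 is high in nearly every row and highest for 74 of all 83 members, wild-type 4 and 2 are high in most, and wild-type 1, 3, 5 and 6 are above the 16-tumor median for 20 to 54 of all 83.

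Values of other cell types were taken beside these results. Macrophage markers summed to 136 to 295 CPM in null tumors and 211 to 585 CPM in wild-type tumors, with wild-type 2, 4 and 7 at 294, 461 and 523 CPM. Of 8, 4 (Cd68, C1qa, C1qb and C1qc) fell in null tumors, beside 8.64% of all genes, and 0 of them without those 3 tumors. Of 10 cardiac muscle markers, a cell type rich in mitochondria, Ryr2 alone, a calcium channel, measured 35.9 to 167 CPM in null tumors and 9.30 to 60.8 CPM in wild-type tumors. The other 9 together summed to 4.79 to 56.2 CPM in null tumors and 6.21 to 70.1 CPM in wild-type tumors, with wild-type 2, 4 and 7 at 23.6, 7.92 and 16.3 CPM. Of 10 neuroendocrine markers, the peptide hormone gene Calca alone measured 138 to 3242 CPM in null tumors and 357 to 23460 CPM in wild-type tumors, highest in wild-type 2 and then 7. The other 9 together summed to 3365 to 5699 CPM in null tumors and 2433 to 3856 CPM in wild-type tumors, with wild-type 7 the lowest. Pericyte and smooth muscle markers summed to 74.4 to 269 CPM in null tumors and 64.7 to 369.9 CPM in wild-type tumors, and skeletal muscle markers to 3.03 to 10.4 CPM in null tumors and 3.15 to 16.96 CPM in wild-type tumors. Markers of ciliated airway cells summed to 166 to 759 CPM in null tumors and 220 to 1044 CPM in wild-type tumors. Of these 6, the tubulin gene Tuba1a alone measured 104 to 642 CPM in null tumors and 158 to 885 CPM in wild-type tumors. Tuba1a was highest in wild-type 7. The other 5 together summed to 23.2 to 216 CPM in null tumors and 60.9 to 159 CPM in wild-type tumors, with wild-type 7 at 159 CPM. Club cell markers summed to 465.6 to 11020 CPM in null tumors and 230 to 4415 CPM in wild-type tumors. Alveolar type 2 markers summed to 735 to 3165 CPM in null tumors and 169.7 to 2148 CPM in wild-type tumors. Endothelial markers summed to 76.5 to 164 CPM in null tumors and 50.8 to 133 CPM in wild-type tumors, fibroblast markers to 274 to 1230 CPM in null tumors and 149 to 679 CPM in wild-type tumors, and brown fat markers to 7.35 to 35.5 CPM in null tumors and 6.21 to 11.5 CPM in wild-type tumors. Lymphocyte markers summed to 15.98 to 63.7 CPM in null tumors and 16.4 to 183 CPM in wild-type tumors, and all 5 tested had differences below 0, none of them called. Called higher in null tumors were 1 of 8 alveolar type 2, 1 of 9 cardiac muscle and 1 of 2 brown fat markers tested, where 7.40% of all genes rose. Without wild-type 2, 4 and 7 these numbered 1, 0 and 0. The brown fat marker called was Ppargc1a, which is counted again below among regulators of mitochondrial gene expression. Apart from macrophage markers, no other list held a called marker, and 4 of 5 club cell markers lay above 0. No gene of these lists was at 0 in all tumors, and the part of other cells in the members' differences was not tested.

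Genes around the chain were followed in 5 lists. Of 30 assembly factors tested, 4 fell and 1 rose, with a median of -0.15, and 0 passed without wild-type 2, 4 and 7. Together these are 16.7% of the list, where 8.64% of all genes fell and 7.40% rose, so the share is near that of all genes. Of all genes, 1.56% had groups that did not overlap, a trait given below for Cox19 and Foxred1. Both were named for their small p. Ndufaf3, a complex I assembly factor, averaged 23.4 ± 4.54 CPM in null tumors and 43.0 ± 15.98 CPM in wild-type tumors (SD; -0.88, edgeR adjusted p = 0.0110; -0.49 without wild-type 2, 4 and 7). Cox19, a copper-handling factor of complex IV, averaged 19.9 ± 2.02 CPM in null and 33.6 ± 10.6 CPM in wild-type tumors, with no overlap between groups (-0.76, edgeR adjusted p = 0.0103; -0.50 and not called without wild-type 2, 4 and 7). Foxred1, a complex I assembly factor, also had no overlap, at 26.9 ± 3.23 CPM in null and 37.2 ± 4.28 CPM in wild-type tumors (-0.47, edgeR adjusted p = 0.0250; -0.54 without the 3 tumors). Lyrm7, which handles the iron-sulfur protein of complex III, rose by 1.32 on the log2 scale (edgeR adjusted p = 0.0129; 1.27 and not called without the 3 tumors).

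Of 18 genes for the mobile carriers ubiquinone and cytochrome c and for proteins that feed electrons to ubiquinone, 2 fell and 1 rose. Together these are 16.7%, again near the share of all genes. The ubiquinone genes Coq10a and Coq4 differed by -0.68 and -0.66 (edgeR adjusted p 0.0179 and 0.0472; -0.32 and -0.56 without wild-type 2, 4 and 7). Adck3, a kinase-like protein needed for ubiquinone synthesis, averaged 41.7 ± 16.5 CPM in null tumors and 17.8 ± 8.09 CPM in wild-type tumors (1.23 ± 0.30, edgeR adjusted p = 0.0131). Of all genes in the 5 lists around the chain it was the only one still called without wild-type 2, 4 and 7 (1.56, edgeR adjusted p = 0.0363). Of the genes for the inhibitor and the exchange of nucleotides, 8 were tested, too few to weigh against all genes. Without wild-type 2, 4 and 7, 0 of them were called, and 0 with the length and GC trend removed. Over all 16 tumors 2 fell, which is 25%, where 8.64% of all genes fell. These were Atpif1, the inhibitor of the ATP synthase (-1.29 ± 0.34, edgeR adjusted p = 0.0212; -0.45 without the 3 tumors), and Vdac3, an outer-membrane channel (-0.67, edgeR adjusted p = 0.0232; -0.56 without the 3 tumors).

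Of 17 regulators of mitochondrial gene expression, 5 rose and 2 fell, with a median of 0.07. These are 29.4% and 11.8% of the list, where 7.40% of all genes rose and 8.64% fell. Ppargc1a, the coactivator PGC-1 alpha, averaged 13.9 ± 8.08 CPM in null and 5.16 ± 1.83 CPM in wild-type tumors (1.43, edgeR adjusted p = 0.0194). Its relative Pprc1 averaged 72.5 ± 10.1 CPM in null and 28.2 ± 20.7 CPM in wild-type tumors (1.36, edgeR adjusted p = 0.0155). The GABP subunit genes split, Gabpb2 at 0.75 and Gabpb1 at -0.59 (edgeR adjusted p 0.0329 and 0.0319). None of these 4 was called without wild-type 2, 4 and 7. Of 13 genes of the citric acid cycle, which feeds the chain, 0 passed in edgeR, 3 had an unadjusted p under 0.05 (2 lower, 1 higher), and DESeq2 called 1. Mdh2, malate dehydrogenase, differed by -0.50 (edgeR adjusted p = 0.0933; -0.06 without the 3 tumors), and the median was -0.02.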

How the data were processed

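The deposited files hold counts, whole numbers of reads per gene symbol, made by the authors, 1 file per tumor. Per the submitters' processing notes, HTSeq 0.6.1, TopHat, TopHat2 2.0.12 and bcl2fastq 1.8.4 were used with mouse build mm9, in roles that are not stated. Annotation and strand setting are not given in these sources. The totals that end each file (reads in no gene, in several genes or at several places) took 29.2% to 45.6% of reads and stayed out of library sizes and tests.

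The groups came from the labels. All 14825 genes kept by edgeR's filter on low counts were fitted together (edgeR 4.0.16, R 4.3.3, TMM factors, quasi-likelihood F test, Benjamini-Hochberg adjustment, threshold 0.05); a log2 difference is that of Max null over Max wild-type. Counting error is small against the spread between tumors at these depths except for genes near 0. No pair of libraries agreed within sampling noise (smallest chi-square 34.1 per degree of freedom). Paralog ratios used log2 CPM with a prior count of 2 and a two-sided exact permutation test. Transcript lengths are those of the longest principal transcript in GENCODE M21 (GRCm38), found for 98.9% of genes tested. A gene pair that shares at least 20% of exon bases was noted. Marker sums are CPM.

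The members and all lists were chosen with earlier results of these data known. Genes were named by a rule: every called member, the 3 members with the highest CPM and the highest and lowest difference of each complex, both genes of each paralog pair, and up to 4 called genes with the smallest p of each list around the chain, or the 2 with the highest CPM where none was called. Single results for some genes are left out of the text and figures. Alternatives were other scalings, DESeq2 1.42.0, limma-voom (limma 3.58.1) with quality weights, other filters, the tumor number as a block, the share of multiply aligned reads as a covariate, a length and GC trend, and leaving out tumors.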

Additional observations from a re-analysis of the deposited data

Results flagged for a closer look

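In several groups the highest or lowest tumor lay so far from the rest of its group that the gap passed Dixon's 95% critical value, which chance alone passes in about 1 of 20 groups. Among the wild-type tumors, wild-type 7 was such a tumor for 53 of the 83 members, and in every complex sum: 9867 CPM in complex I, 1382 in complex II, 3997 in complex III, 7146 in complex IV, 11392 in the ATP synthase and 33783 over all subunits.

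The CPM of wild-type 7 that stood apart, among the genes named by the rule, were as follows. In complex I they were Ndufa11 262, Ndufa12 496, Ndufa2 414, Ndufa7 373, Ndufb11 671, Ndufb3 171, Ndufb5 311 and Ndufs5 19.6. Of 4 more complex I genes named outside the rule they were Ndufa1 164, Ndufa13 221, Ndufb6 186 and Ndufv1 296. In complexes II and III they were Sdhb 787, Uqcrc1 246 and Uqcrh 1388. In complex IV they were Cox4i1 1294, Cox5a 361, Cox5b 495, Cox6a1 702, Cox6c 800.3 and Cox8a 741. In the ATP synthase they were Atp5a1 1287, Atp5b 2244, Atp5f1 604, Atp5g1 263, Atp5g2 793, Atp5g3 648 and Atp5l 878. Outside the complexes, Atpif1, the synthase inhibitor, measured 1463 and Mdh2 639.9 CPM in the same tumor. Wild-type 6 stood apart for Ndufa4l2, at 10.3 CPM.

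Among the null tumors, null 5 stood apart in the complex IV sum, at 2326 CPM, and for Cox4i1 at 614, Cox4nb at 181 and Vdac3 at 274 CPM, each the highest. The same tumor was the lowest for Foxred1, at 19.7 CPM. Null 9 was the highest for Atp5f1 at 323 CPM, null 4 for Gabpb2 at 269.6, null 7 for Ndufa4l2 at 11.7 and null 2 for Ndufs5 at 2.75 CPM.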

How the results depend on the processing

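All 19 called members kept their sign in every fit without 1 tumor, and all 19 stayed called with other scaling factors, with DESeq2 and with a stricter filter. Called members numbered 8 with limma-voom, 12 with no filter, 3 with a length and GC trend removed, and 0 without wild-type 2, 4 and 7 (38 members then lay above 0, against 3) or with the multiply aligned covariate. Over fits without 1 tumor they numbered 7 (wild-type 7) to 34 (wild-type 5), with 33, 30 and 32 without wild-type 1, 3 and 6, 9 without wild-type 4 and 11 without wild-type 2. All genes called numbered 2378, 3612 with DESeq2, 2440 with limma-voom, 2079 with no filter, 1607 with the length and GC trend removed, 256 without wild-type 2, 4 and 7, 10 with the covariate, and 1471 (without wild-type 4) to 3033 (without wild-type 1). The member median of -0.67 became -0.019 without the 3 tumors, 0.29 with the covariate, -0.12 with the length and GC trend removed and -0.30 without wild-type 7. It was -0.33 with limma-voom, and -0.44 with the tumor number as a block, over 14 or all 16 tumors.

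Tumor numbers occur in both groups, but same-numbered tumors did not deviate together (correlations -0.17 to 0.24, and 0 of 7 tumors correlated best with their own number), so they share only a number. With the replicate block, 0 members were called (17 at an unadjusted p under 0.05), and 278 of all genes over the 14 tumors with shared numbers or 318 over all 16. Signs turned for Atp5a1 0.10, Cox4i2 0.53 and Ndufs1 0.018 over 14 tumors and Atp5a1 0.10, Cox4i2 0.53 and Ndufs1 0.019 over all 16, and the paired Cox6a2 to Cox6a1 ratio difference was 0.11.

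Among the genes named by the rule, log2 differences whose sign turned were, with DESeq2, Cox4i1 0.10. With limma-voom they were Atp5a1 0.16, Atp5g1 0.074, Cox4i2 0.015, Cox4nb -0.012, Cox6a1 0.057 and Cox6a2 0.10. With no filter they were Atp5a1 0.0059, Cox4i2 0.011 and Ndufs1 0.014. Without wild-type 2, 4 and 7 they were Atp5a1 0.18, Atp5g1 0.25, Atp5g2 0.073, Atp5g3 0.15, Cox4i1 0.18, Cox6a1 0.24, Cox6a2 0.56, Cox8a 0.0074, Ndufb11 0.39 and Uqcrc2 0.078, and the ratio differences were -0.057 for Cox4i2 to Cox4i1, 0.13 for Cox6a2 to Cox6a1 and -0.46 for Ndufa4l2 to Ndufa4. With the length and GC trend removed they were Atp5a1 0.039, Atp5g3 0.23, Cox4i1 0.16, Cox4i2 0.28, Cox4nb -0.14, Cox6a1 0.32, Cox6a2 0.050, Cox8a 0.0053, Ndufa4 0.075, Ndufb11 0.14, Ndufb3 0.017, Ndufs1 0.11, Uqcrb 0.15 and Uqcrc2 0.031. With the multiply aligned covariate they were Atp5a1 0.35, Atp5b 0.023, Atp5f1 0.28, Atp5g1 0.62, Atp5g2 0.50, Atp5g3 0.48, Atp5k 0.14, Atp5l 0.027, Atpif1 0.10, Cox4i1 0.52, Cox4i2 0.12, Cox5b 0.075, Cox6a1 0.66, Cox6a2 0.11, Cox6b1 0.27, Cox6c 0.30, Cox7a2 0.24, Cox8a 0.47, Mdh2 0.15, Ndufa11 0.098, Ndufa12 0.22, Ndufa2 0.23, Ndufa3 0.19, Ndufa4 0.22, Ndufa7 0.24, Ndufb11 0.79, Ndufb3 0.21, Ndufb5 0.29, Ndufs4 0.11, Ndufs5 0.85, Ndufv2 0.14, Sdhb 0.43, Sdhd 0.14, Uqcrb 0.18, Uqcrc2 0.33 and Uqcrh 0.41.

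Fits without 1 tumor ranged from -0.12 to 0.17 for Atp5a1, -0.37 to 0.077 for Atp5g1, -0.53 to 0.092 for Cox4i1, -0.29 to 0.29 for Cox4i2, -0.082 to 0.18 for Cox4nb, -0.40 to 0.11 for Cox6a1, -0.68 to 0.28 for Ndufa4l2, -0.092 to 0.021 for Ndufs1, -0.036 to 0.22 for Uqcrc1, and ratio differences from -0.51 to 0.16 for Cox6a2 to Cox6a1 and -0.020 to 0.32 for Cox7a1 to Cox7a2. The cause of these changes was not tested. Depth limits only the genes near 0.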
